A study of Rattus norvegicus with 46 samples.

Results

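Supraspinatus tendon was compared 3 days after tenotomy between rats' shoulders whose subacromial bursa had been removed and shoulders whose bursa was kept. The 12 libraries, of 46 in the series, were taken by their labels: 6 from tendons with the bursa removed (bursectomy) and 6 from tendons with the bursa intact, numbered 1 to 6 in each group. All 12 tendons had been cut, so by the labels the groups differ only in the bursa, and no uninjured tendon is in either group. Control tendons of rats without an operation (n = 5) and tendons at day 14 (6 with the bursa removed, 6 with it intact) serve as background. They are also part of the fit of 29 tendon libraries, and so of its filter, scaling and estimate of spread. Per the series text the tendons were bilateral and controlled within each rat, but the labels tie no library to a rat. The labels state no strain, sex or age. RNA came from whole dissected tissue and was enriched for polyadenylated transcripts, so less RNA per cell and fewer cells of a type cannot be told apart.

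The subacromial bursa is a thin synovial sac between the rotator cuff and the acromion. In the first days after a tendon is cut, the injury is inflamed and resident and incoming fibroblasts divide, become activated and begin to lay down collagen, a response in which TGF-beta is a main signal. The muscle that pulled on the tendon loses its load, and fibres that regenerate or lose their nerve re-express developmental genes such as myogenin and fetal acetylcholine receptor subunits.

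Libraries held 14256707 to 17247928 estimated counts with the bursa removed and 13490330 to 18918541 with it intact. Genes of the tendon cell list were detected in both groups, with a mean level of 5.86 ± 0.192 log2 CPM (SD, n = 6; CPM is counts scaled to the same total in each library) with the bursa removed and 5.87 ± 0.434 (SD, n = 6) with it intact, against 8.07 ± 0.425 (SD, n = 5) in control tendon. Every library also held muscle RNA. The 19 adult skeletal muscle genes tested took 0.488 to 3.66% of the TMM-scaled total with the bursa removed and 0.434 to 1.17% with it intact. The list has 32 genes, and those not tested are left out of this share and of the list's level. Myh4, a fast muscle myosin, was not tested by name. Its mean normalized count in the authors' deposited table is 78588, against 44494 for Acta1. The share therefore leaves out part of the muscle RNA. A single library stands apart. Removed number 1 had the highest muscle share (3.66%, the next 1.3%) and the lowest mean level of the fibrous matrix list (10.3 log2 CPM, the next 11.1). Many results, though not all, are therefore given with and without it.

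Differences between the groups were small beside the spread between libraries. With edgeR's quasi-likelihood test, 0 of 16877 features passed an adjusted p of 0.05, and the lowest adjusted p was 0.297. At an unadjusted p under 0.05, 639 features were higher with the bursa removed (3.79%) and 636 were lower (3.77%). Without removed number 1 these counts were 201 higher and 355 lower. With libraries of the same number as a block, again 0 passed (edgeR, lowest adjusted p = 0.307), and at an unadjusted p under 0.05 there were 733 higher (4.34%) and 1038 lower (6.15%). DESeq2 on the 29 tendon libraries called 2 higher (0.00975%) and 10 lower (0.0487%). On the 12 day 3 libraries DESeq2 called 0 higher and 9 lower (0.039%) without the block, with 588 higher and 575 lower at an unadjusted p under 0.05. With the block it called 26 higher (0.158%) and 51 lower (0.31%). The authors' deposited table of the same groups calls 31 symbols higher with the bursa removed (0.391% of 7928) and 51 lower (0.643%), at an adjusted p under 0.05. Of those 82 symbols, 67 could be followed in the counts by name, and DESeq2 with the block called 45 of them. The DESeq2 count with the block moved from 77 to 40 without the libraries of number 1, to 182 without number 3 and to 24 without number 5. Below, a gene is "called" where the authors' deposited table gives an adjusted p under 0.05. No gene named below passed adjusted p 0.05 in edgeR.

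Genes of activated fibroblasts were mostly lower with the bursa removed. Of 15 tested members of that list 13 were lower and 2 higher, with a median log2 difference of -0.32, against -0.0059 over all features. In edgeR 6 were lower at an unadjusted p under 0.05 and 0 were higher. The authors' deposited table calls 7 of the list's 16 genes lower and 0 higher. The list's mean level was lower in the removed library of all 6 same-numbered pairs, by 0.14 to 0.68 log2 units. When removed number 1 was left out, 13 of 15 were still lower, the median was -0.19 and 3 had an unadjusted p under 0.05.

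Ptgs2 encodes cyclooxygenase-2, the inducible enzyme of prostaglandin synthesis, and has the smallest adjusted p in the authors' deposited table (3.7e-05). Its lowest, median and highest levels were 6.79, 13 and 42.3 CPM with the bursa removed and 18.3, 34.3 and 75.6 CPM with it intact. The groups overlapped, and the removed library was the lower one in 6 of 6 same-numbered pairs. Over all features, 3.69% were lower and 2.58% higher in all 6 pairs. The edgeR log2 difference was -0.94 (95% interval -1.89 to 0.019, unadjusted p = 0.054), and -1.05 with the block in the 12 libraries. Control tendon held 1.01 CPM of Ptgs2. The difference was -0.79 without removed number 1.

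Lrrc15, a surface protein of TGF-beta activated myofibroblasts, stood at 29, 57.6 and 71.6 CPM (lowest, median, highest) with the bursa removed and at 67.0, 86.0 and 135 CPM with it intact. Only the top of the removed group reached into the intact range. Its log2 difference was -0.71 (95% interval -1.13 to -0.29), or -0.58 without removed number 1. The authors' deposited table gives an adjusted p of 0.0072.

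Tgfbi, a secreted matrix protein induced by TGF-beta, separated the groups fully, with 768 to 1581 CPM with the bursa removed and 1595 to 1951 CPM with it intact. Full separation of 6 from 6 libraries was seen for 33 features lower with the bursa removed (0.196%) and 13 higher (0.077%). Removed number 1 was the lowest Tgfbi library, and without it the log2 difference of -0.44 became -0.33 (unadjusted p = 0.094). Loxl2, which cross-links collagen and elastin, had a median of 204 CPM with the bursa removed and 275 CPM with it intact, with an overlap of a single removed library. Its log2 difference was -0.52, and -0.39 without removed number 1. Cthrc1, a protein secreted by collagen-producing fibroblasts, differed by -0.45 and Inhba, the activin A subunit, by -0.59 on the log2 scale, and both are called lower. Without removed number 1 their log2 differences in edgeR were -0.34 (unadjusted p = 0.043) and -0.455 (unadjusted p = 0.155) in that order. Acta2 and Tagln, contractile genes shared by myofibroblasts and smooth muscle, were the list's 2 members on the higher side, each with a log2 difference of 0.16, and neither is called.

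**Figure D1:**
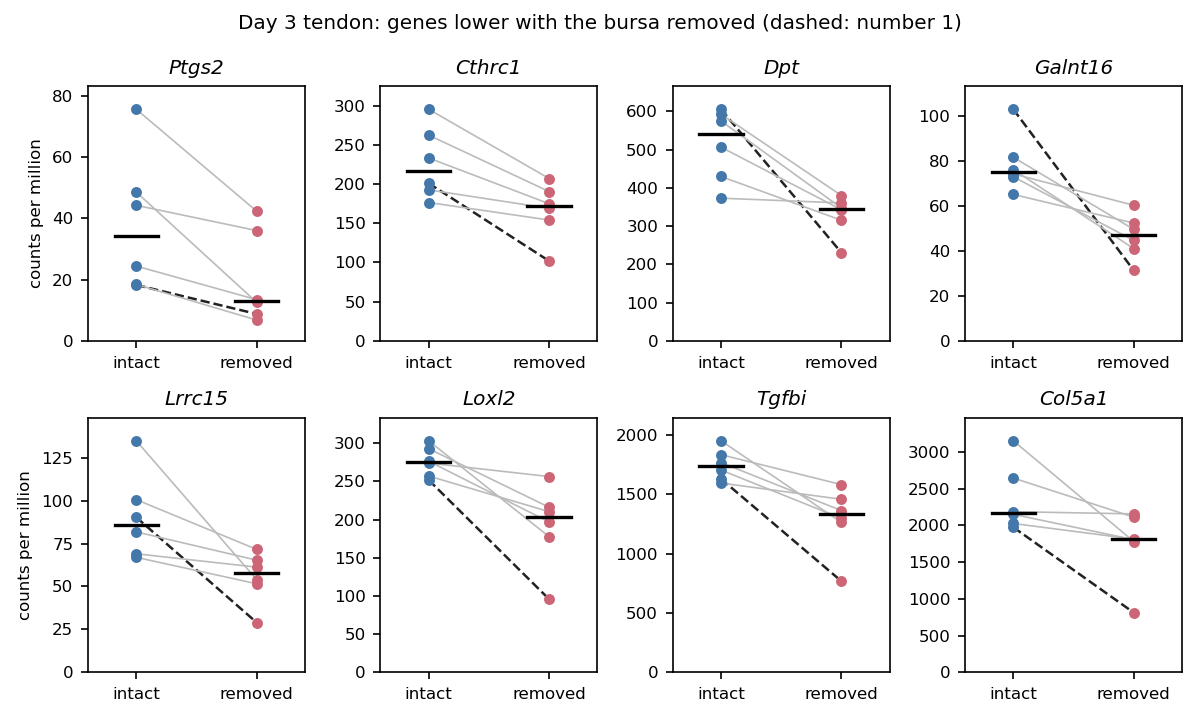
CPM (y axis, from 0) of 8 genes in the 6 intact and 6 removed libraries of day 3 tendon; each point is a library, black bars are medians, lines join libraries of the same number and the dashed line is number 1. For Galnt16 and Tgfbi the groups do not overlap, and every Ptgs2 line slopes down from intact to removed.

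Fibrous matrix genes were lower by a similar amount. Of 15 tested members 14 were lower with the bursa removed, with a median log2 difference of -0.32, 5 of them at an unadjusted p under 0.05. The removed library was lower in all 6 pairs, by 0.038 to 0.81 log2 units. This list leaned on 1 library: without removed number 1 the median was -0.2, 14 of 15 were still lower and 0 had an unadjusted p under 0.05.

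Col5a1 and Col5a2 encode chains of type V collagen, which nucleates collagen fibrils. Col5a1 stood at 813, 1808 and 2155 CPM with the bursa removed and at 1974, 2167 and 3150 CPM with it intact. The groups overlapped, with removed number 1 far below the other 11 libraries. Its log2 difference was -0.43, and -0.29 without removed number 1. Col5a2 differed by -0.36, and by -0.21 without that library, and is called lower with an adjusted p of 0.031 in the authors' deposited table. The main fibrillar collagens were not called. Col1a1 differed by -0.39 (95% interval -0.89 to 0.11) and Col3a1 by -0.32 (95% interval -0.66 to 0.016). Without removed number 1 these differences were -0.29 and -0.18 in that order. Elastin (Eln) was the list's single gene on the higher side, at 0.44.

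Several enzymes that modify and cross-link collagen are called lower in the authors' deposited table and were picked here after their values were seen. P4ha1 and P4ha2, subunits of collagen prolyl hydroxylase, differ there by -0.47 and -0.51 on the log2 scale. Plod2, a lysyl hydroxylase, differs by -0.39 in the authors' deposited table, and Lox, lysyl oxidase, by -0.46. In the counts P4ha2 stood at 44.6 to 92.0 CPM with the bursa removed and at 85.9 to 106 CPM with it intact, a log2 difference of -0.49 (unadjusted p = 0.0024). Lox could not be followed in the counts by name.

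Outside these lists, the smallest p in edgeR belonged to Galnt16, an enzyme that starts O-linked glycosylation. Its levels ran from 31.3 to 60.2 CPM with the bursa removed and from 65.1 to 103 CPM with it intact, so the groups did not overlap. The log2 difference was -0.76 (95% interval -1.06 to -0.46, adjusted p = 0.3 in edgeR), and -0.67 without removed number 1. Dpt, which encodes the matrix protein dermatopontin, stood at 230, 345 and 380 CPM with the bursa removed and at 373, 541 and 606 CPM with it intact. The highest removed and lowest intact libraries only just crossed, and the log2 difference was -0.64 (95% interval -0.92 to -0.37). Osr2, a transcription factor of connective tissue, Rab15, a small GTPase of endosomes, and Mmp16, a membrane-bound metalloproteinase, also separated the groups fully. Their log2 differences were -0.84, -0.57 and -0.6 in that order. Full separation on the lower side held for 33 of all 16877 features (0.196%).

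Fndc1 and the glycoprotein Tpbg differed by -0.78 and -0.55 and are called lower. Fam167a and Adam23 differed by -0.71 and -0.65 and are called lower too. Csf1, the growth factor of macrophages, was lower by a smaller but tight margin, at 74.7, 83.3 and 104 CPM with the bursa removed against 103, 109 and 122 CPM with it intact. The log2 difference was -0.36 (95% interval -0.57 to -0.15), and the authors' deposited table gives an adjusted p of 0.0049. F13a1, a coagulation factor made by tissue macrophages, differed by -0.57, or -0.48 without removed number 1, and is called lower.

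Among signals, the 15 tested genes of the TGF-beta, activin and BMP list did not move as one: 11 were lower and 4 higher, with a median of -0.095. Tgfb3, a TGF-beta ligand, differed by -0.44 and is called lower, as is Inhba, while Tgfb1 differed by -0.075. The immediate early and AP-1 genes, which switch on within minutes of stimulation, were all on the lower side, 15 of 15, with a median of -0.31. In edgeR 2 of them, Fosl2 and Zfp36, had an unadjusted p under 0.05, and the authors' deposited table calls none. Without removed number 1, 15 of 15 were still lower (median -0.26) and 0 had an unadjusted p under 0.05. Of 11 hypoxia and glycolysis genes 8 were lower (median -0.19). Vegfa, which could not be followed in the counts by name, differs by -0.6 with an adjusted p of 0.0072 in the authors' deposited table.

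Tendon cell and cell division genes gave no call, and of the inflammatory cytokine and chemokine list only Ptgs2 and Csf1 are called. Scx, the transcription factor of tendon cells, stood at 17.0, 22.6 and 36.0 CPM with the bursa removed and at 13.2, 24.6 and 36.3 CPM with it intact. The ranges coincided, and the log2 difference was -0.095 (95% interval -0.55 to 0.37). Tnmd, a marker of mature tenocytes, differed by -0.39 (95% interval -0.92 to 0.14) and Mkx, another tendon transcription factor, by 0.26 (95% interval -0.29 to 0.81). The lubricant gene Prg4 differed by -0.12 (95% interval -0.68 to 0.43).

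That inflammatory list had 9 members higher and 6 lower of 15 tested, with a median of 0.032. Il1b and Il6 encode early inflammatory cytokines. Il1b ran from 1.84 to 5.16 CPM with the bursa removed and from 2.3 to 4.48 CPM with it intact, a log2 difference of 0.27 (95% interval -0.37 to 0.92). Il6 differed by 0.27 (95% interval -0.62 to 1.17) and the monocyte chemokine Ccl2 by 0.014 (95% interval -0.76 to 0.78). Of 15 tested monocyte and macrophage genes 11 were lower (median -0.095), or 8 without removed number 1, and F13a1 is the only one the authors' deposited table calls. Mki67, a marker of dividing cells, differed by -0.11 (95% interval -0.4 to 0.18). The collagenase Mmp13 differed by 0.57 and stromelysin Mmp3 by 0.38, each with ranges that overlapped widely (95% intervals -0.23 to 1.36 and -0.61 to 1.38). Spp1, osteopontin, differed by 0.36 (95% interval -0.41 to 1.12).

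**Figure D2:**
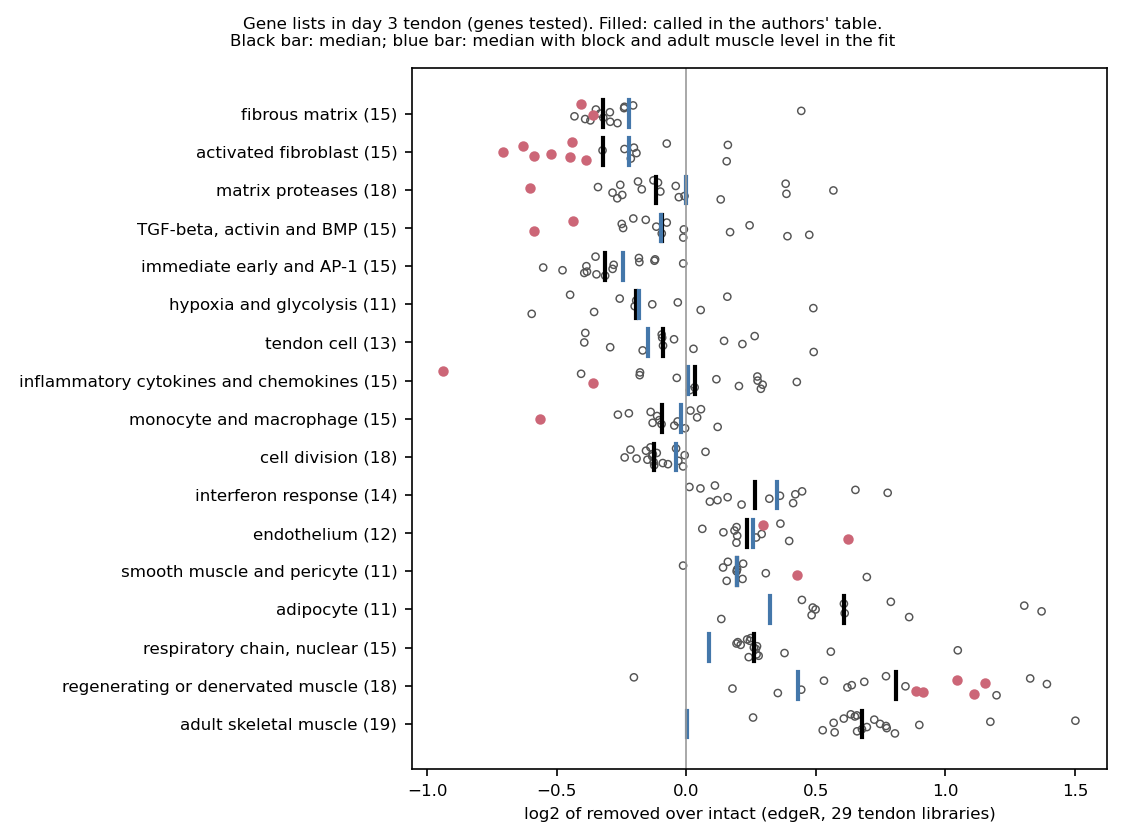
Log2 of removed over intact (x axis, edgeR on 29 tendon libraries) for the members of 17 gene lists (y axis, number of genes tested in brackets); filled points are called in the authors' deposited table, black bars are list medians and blue bars the medians with the replicate block and the adult muscle level in the fit of 12 libraries. The activated fibroblast and fibrous matrix medians sit at -0.32. The adult skeletal muscle median is 0.68 in the 29 libraries, 0.41 there with the block alone and 0.003 in the fit of the blue bars. That list itself sets the adult muscle level, so its blue bar is fixed by the fit.

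Among the gene lists, regenerating or denervated muscle had the largest median on the higher side and the most genes called higher. The 12 symbols with the smallest edgeR p on the higher side lie outside this list. Of 18 tested members 17 were higher with the bursa removed, with a median log2 difference of 0.81, 8 of them at an unadjusted p under 0.05. The authors' deposited table calls 5 of the list's 21 genes higher and 0 lower. The list's mean level was higher in the removed library of 6 of 6 pairs, by 0.064 to 1.43 log2 units. Removed number 1 was the highest library of the list (4.55 log2 CPM), followed by removed number 2 (3.91), and intact number 1 was the highest intact library (3.55). Without removed number 1 the median was 0.44, 17 of 18 were still higher and 2 had an unadjusted p under 0.05. The adipocyte list then had the larger median, 0.48.

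Myog encodes myogenin, which drives muscle precursors to differentiate. Its lowest, median and highest levels were 29.7, 35.3 and 117 CPM with the bursa removed and 13.8, 23.2 and 36.8 CPM with it intact. Removed number 1 gave the 117 CPM, and 3 removed libraries lay above the whole intact range while the other 3 lay within it. The edgeR log2 difference was 1.05 (95% interval 0.25 to 1.84, unadjusted p = 0.012), and 0.58 without removed number 1 (unadjusted p = 0.11). The authors' deposited table gives an adjusted p of 0.00023.

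Chrnd and Chrna1 encode subunits of the muscle acetylcholine receptor. Chrnd stood at 16, 22.6 and 50.5 CPM with the bursa removed and at 9.33, 13.3 and 23.2 CPM with it intact, and was higher in 6 of 6 pairs. Its log2 difference was 0.89 (95% interval 0.26 to 1.51), and 0.6 without removed number 1. Chrna1 differed by 0.91, and by 0.53 without that library. Ankrd1, a stress-induced muscle protein, stood at 61.3, 99.0 and 239 CPM against 39.5, 61.9 and 79.7 CPM, a log2 difference of 1.11 (95% interval 0.4 to 1.81), and 0.86 without removed number 1. Myl4, a fetal myosin light chain, is called higher, with medians of 14.3 CPM with the bursa removed and 7.7 CPM with it intact. Its log2 difference in edgeR was 1.15 (unadjusted p = 0.21), and 0.43 without removed number 1 (unadjusted p = 0.63). Mustn1 and Itga7, the latter an integrin of muscle fibres, differed by 0.88 and 0.61 and are called higher. These differences were 0.42 and 0.33 without removed number 1.

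Endothelial genes were higher by a smaller and more even amount. All 12 tested members were higher, with a median of 0.23, and their mean level was higher in the removed library of 6 of 6 pairs, by 0.095 to 0.44 log2 units. With removed number 1 left out, 11 of 12 were higher and the median was 0.19. The authors' deposited table calls 3 of the list's 14 genes higher and 0 lower. Cldn5, a tight junction protein of endothelium, stood at 15.1, 16.4 and 24.6 CPM with the bursa removed and at 6.65, 10.6 and 17.4 CPM with it intact. Only 2 intact libraries reached into the removed range. The log2 difference was 0.62 (95% interval 0.24 to 1.01), and 0.57 without removed number 1. Tie1, an endothelial receptor, ran from 142 to 187 CPM against 112 to 158 CPM, a log2 difference of 0.3 (95% interval 0.055 to 0.54). Cdh5, the cadherin of endothelial junctions, differs by 0.45 in the authors' deposited table (adjusted p = 0.0065) and could not be followed in the counts by name. Kcnj8, a potassium channel subunit of pericytes, differed by 0.43 (95% interval 0.13 to 0.73) and is called higher.

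Stx4, a membrane fusion protein, and the tetraspanin Tspan15 were higher without overlap, which held for 13 of all 16877 features (0.077%). Stx4 ran from 48.4 to 62.3 CPM with the bursa removed and from 39.7 to 47.8 CPM with it intact (log2 difference 0.23), and Tspan15 from 8.51 to 20.2 CPM against 6.18 to 7.77 CPM (log2 difference 0.81). Without removed number 1 the log2 differences were 0.17 and 0.59 in that order. Stx4 is not called (adjusted p = 0.23 in the authors' deposited table). For Tspan15 the authors' deposited table gives a p of 0.0001 and no adjusted p, so it has no call there. Cyp4b1, a cytochrome P450, differed by 1.01 and was higher in 6 of 6 pairs, also without a call. Among the 31 symbols called higher in the authors' deposited table, 5 are uncharacterised loci that share the same log2 difference of 0.57 and cannot be told apart. Interferon response genes were higher in 14 of 14 tested members (median 0.27), and 0 are called. In edgeR 0 of them had an unadjusted p under 0.05, and 2 with the block. Their mean level was higher in the removed library of 6 of 6 pairs, by 0.014 to 0.48 log2 units. Without removed number 1, 14 of 14 were still higher (median 0.31). All 11 tested adipocyte genes were on the higher side (median 0.61), 4 of them at an unadjusted p under 0.05 (1 without removed number 1), and their mean level was higher in the removed library of 3 of 6 pairs.

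**Figure D3:**
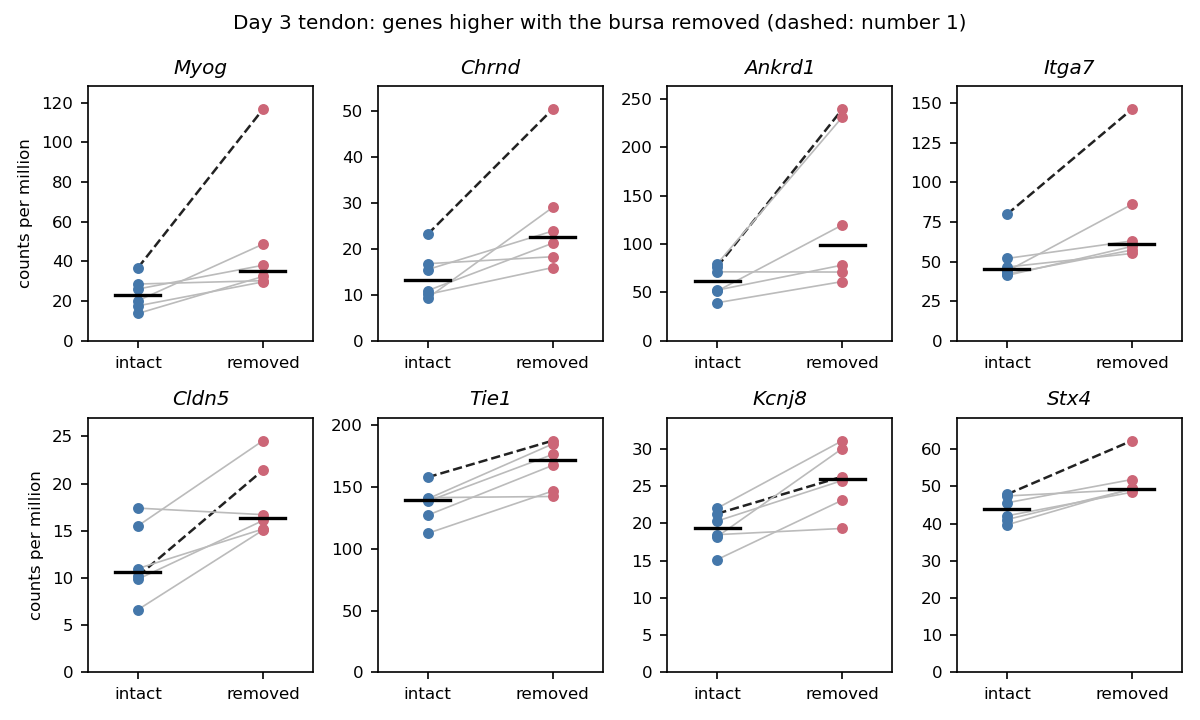
CPM (y axis, from 0) of 8 genes in the 6 intact and 6 removed libraries of day 3 tendon; each point is a library, black bars are medians, lines join libraries of the same number and the dashed line is number 1. Removed number 1 is the highest Myog library at 117 CPM, and the Stx4 groups do not overlap.

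Because muscle RNA was present, its level was measured in every library and then entered in the fit. The mean level of the adult muscle list was 8.32 ± 1.09 log2 CPM with the bursa removed and 7.89 ± 0.538 with it intact (SD, n = 6 each), against 11.1 ± 0.288 in control tendon (SD, n = 5). The removed library was higher in 4 of 6 pairs, and removed numbers 1 and 2 lay above every intact library while the other 4 lay within the intact range. All 19 tested members were on the higher side with a median of 0.68, of which 0 are called. Without removed number 1 the median was 0.086, with 11 higher and 8 lower. Ckm, muscle creatine kinase, differed by 0.68 (95% interval -0.28 to 1.64) and by -0.067 without that library. Acta1, skeletal actin, differed by 0.81 (95% interval -0.14 to 1.75) and by 0.086 without it. Muscle genes outside the list are called higher in the authors' deposited table, and were picked here after their values were seen. They include Tnnc1 (log2 difference there 0.95), Casq2 (0.91), Ankrd2 (0.88) and Mybph (0.73).

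**Figure D4:**
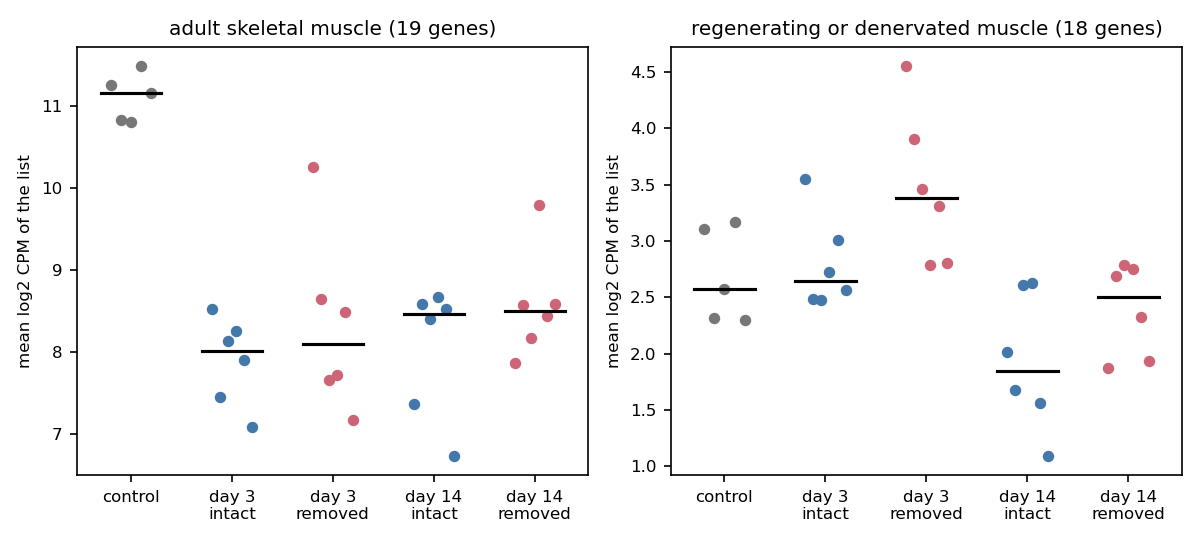
Mean log2 CPM (y axis) of the adult skeletal muscle list (left) and the regenerating or denervated muscle list (right) in each tendon library by group (x axis); bars are medians. Day 3 libraries lie below control tendon for the adult list, and removed number 1 at 10.3 and 4.55 is the highest day 3 library in both panels.

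Genes called lower kept their direction when the muscle level was in the fit. For the 43 genes called lower that could be followed by name, the median log2 difference in the 12 libraries with the block was -0.5. It was -0.42 with the adult muscle level added and -0.49 with the regenerating muscle level added, and all 43 stayed lower in both. These genes were called in the same contrast, so the counts are a description. Their number with an unadjusted p under 0.05 in edgeR went from 43 to 40 and to 22. Over all features, 4.83% were higher and 5.39% lower at that p with the block alone, and 3.31% and 3.13% with the adult level added. For the 24 called higher the median was 0.62, then 0.51 with the adult level and 0.33 with the regenerating level, all 24 still higher, and the number with an unadjusted p under 0.05 went from 24 to 20 and to 8. Called members of the regenerating list, such as Myog and Chrnd, are among the 24, so part of that move is built in. The regenerating level was also higher in the removed library of all 6 pairs. Myog went from 0.94 to 0.78 with the adult level and to 0.38 with the regenerating level, of which it is itself a member. Ptgs2 went from -1.05 to -1.09 and -1.51, Dpt from -0.62 to -0.52 and -0.49, and Cldn5 from 0.67 to 0.53 and 0.52.

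With the adult muscle level and the block in the fit, the list medians were -0.22 for activated fibroblast, -0.22 for fibrous matrix, 0.26 for endothelium, 0.43 for regenerating muscle and 0.003 for adult muscle. The adult muscle list itself sets that level, so its own median is fixed by the fit and is not a result. DESeq2 with the block called 39 features higher (0.237%) and 54 lower (0.328%) with the adult level added, and 54 of these 93 were among the 77 called without it. With the regenerating level added DESeq2 called 2 higher (0.00862%) and 4 lower (0.0172%), 1 of them among the 77. The muscle level was measured in the same libraries as the genes, and what it shares with bursa removal itself cannot be told apart here.

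**Figure D5:**
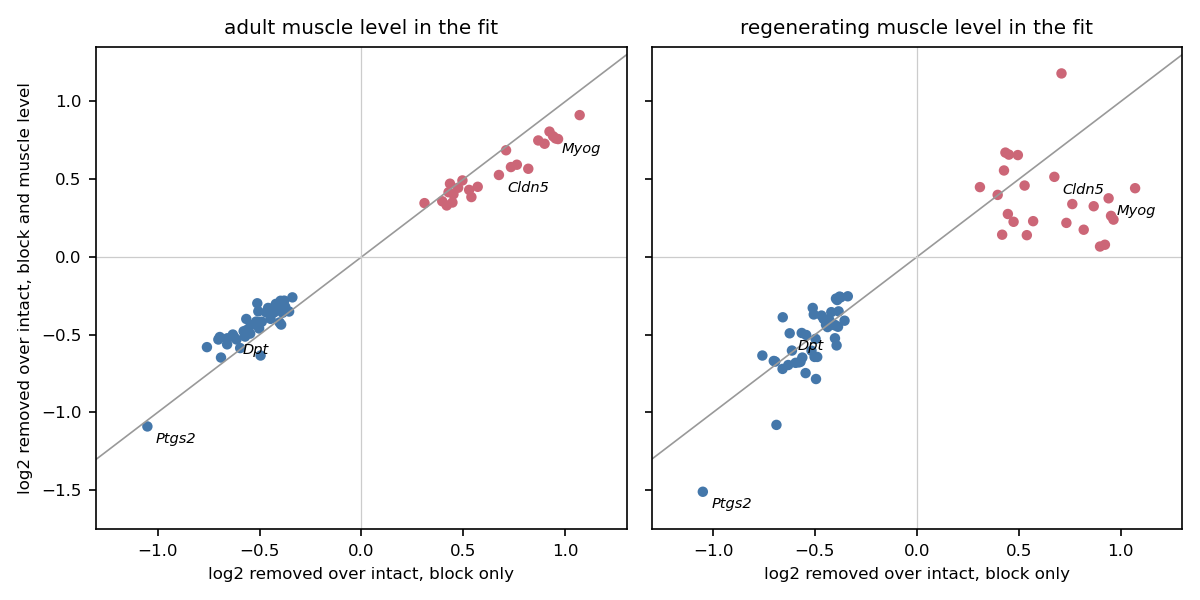
Log2 of removed over intact for 67 genes called in the authors' deposited table, from edgeR on the 12 libraries with the replicate block (x axis) and with a muscle level added (y axis; adult list left, regenerating list right); the grey line marks equal values. Blue genes are lower and red genes higher with the bursa removed, and all keep their side. The red genes draw closer to 0 with the regenerating level, to a median of 0.33. Members of the regenerating list are among them, so part of this move is built in.

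In the same contrast at day 14 fewer features passed the unadjusted threshold. At an unadjusted p under 0.05, 141 features were higher with the bursa removed (0.835%) and 84 lower (0.498%). All tendon groups share the same estimate of spread in this fit, so the counts do not compare the size of the effect between days. The day 3 contrast itself went from 1275 features (7.55%) in this fit to 866 (5.52%) with the 12 day 3 libraries fitted alone. The difference between the days was tested itself: 0 features passed an adjusted p of 0.05 in edgeR or DESeq2, and 259 (1.53%) had an unadjusted p under 0.05 in edgeR. At day 14 the list medians were -0.044 for activated fibroblast, -0.033 for fibrous matrix, 0.12 for endothelium, 0.33 for regenerating muscle and 0.56 for adult muscle. Galnt16 differed by -0.76 at day 3 and by -0.00017 at day 14, and Dpt by -0.64 and -0.04. Both were picked for their small p at day 3, so these values are a description and carry no test of the difference between days.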

How the data were processed

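The authors deposited a table of estimated counts per transcript for 46 libraries, made with kallisto 0.44.0 after bcl2fastq 2.19 per the submitters' processing notes, and 11 gene tables from DESeq2 (version: not given in the sources used here). Per the file headers, the deposited gene tables hold baseMean (a signal: mean normalized counts), a log2 fold change with its standard error (log2 units), a score (the Wald statistic), and a p-value with its adjusted p-value. No source used here gives the genome build or annotation. The deposited log2 fold change has the intact group on top and is turned here to removed minus intact.

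The count table names no genes. Symbols were matched by value, from the transcripts whose scaled counts gave the deposited baseMean in all 11 tables: 12692 of 23747 symbols, holding 85.9 to 87.3% of counts in the 12 libraries. A search with decoy values found 31 matches (0.244%). Transcripts left unmatched were each tested as 1 feature.

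Estimated counts were rounded and added up per symbol, filtered with filterByExpr and scaled with TMM. The 29 tendon libraries were fitted with edgeR 4.0.16 (glmQLFit robust, glmQLFTest, R 4.3.3), with Benjamini-Hochberg adjustment over all 16877 features, and with DESeq2 1.42.0 as an alternative. Log2 CPM used a prior count of 2. Intervals are 95%. The scripts were tested on simulated data. Libraries of the 2 groups are not stated to be separate animals, so p-values measure the spread between libraries. Intervals and p-values given for edgeR without mention of a block pool that spread over all 29 tendon libraries. They leave out the pairing by number.

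Pairing of the same-numbered libraries comes from the series text (tendons controlled within each rat) and from the authors' deposited log2 fold changes, which correlated at 0.9987 across 6868 genes with DESeq2 with the number as a block and at 0.9672 without it. In the counts, same-numbered libraries deviated together weakly: correlations were 0.0519 to 0.364, and 3 of 6 were above 0.1, against a mean of -0.0307 for other pairings. The labels do not state which libraries share a rat.

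The text names the 12 symbols with the smallest p in each direction of the edgeR fit and the 8 in each direction of the block fit (mean of at least 5 CPM), up to 4 members per gene list, and 16 fixed genes, as far as each adds to the account; other genes are named with a note or as list members. Some genes that the rule names are not reported here. The libraries and the gene lists were chosen with earlier results of these data known. Normalization, filter, tool, block, muscle level and libraries left out were varied. Sequences are not printed, as none carries a result here.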

Additional observations from a re-analysis of the deposited data

Results flagged for a closer look

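Dixon's criterion was applied to 180 groups of 6 values (85 named genes and 5 lists, each in the removed and the intact libraries). In 29 of them the highest or lowest library lay far from the other 5. The criterion flags about 1 in 20 groups of independent normal values. Gene values here were CPM without a log, and genes of the same libraries are not independent, so the 29 cannot be set against that rate. Removed number 1 was the outlying library in 18 of the 29. It was the lowest for the activated fibroblast list (6.83 mean log2 CPM, the next 7.52), the fibrous matrix list (10.3, the next 11.1), Col3a1 (11000 CPM), Col5a1 (813 CPM) and Col5a2 (847 CPM). It was the highest for the muscle genes Acta1 (9122 CPM), Ckm (4206 CPM), Des (4584 CPM), Myl2 (167 CPM), Myog (117 CPM), Chrna1 (55.2 CPM), Itga7 (146 CPM), Mustn1 (1292 CPM) and Dysf (202 CPM), and for Cox4i1 (324 CPM), Cox8b (97.2 CPM), Stx4 (62.3 CPM) and Tspan15 (20.2 CPM).

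Intact number 1 stood above the other intact libraries for Itga7 (79.8 CPM), Mustn1 (501 CPM), Myh7 (280 CPM) and Esam (77.9 CPM). Removed number 6 was highest for the bone genes Ibsp (4.51 CPM) and Col10a1 (0.495 CPM), and removed number 2 for Pdk1 (26.4 CPM). Among intact libraries, number 6 was highest for Adm (17.5 CPM), number 2 for Cd24 (16.5 CPM) and number 3 for Col10a1 (0.047 CPM), while number 3 was lowest for P4ha2 (85.9 CPM). The part of library composition in these values was not tested.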

How the results depend on the processing

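No edgeR setting called a feature at an adjusted p of 0.05, with other size factors, no filter, the 12 libraries alone, the replicate block, a muscle level in the fit or libraries left out. DESeq2 called 2 higher and 10 lower on 29 libraries, and 0 higher and 9 lower on 12. DESeq2 with the replicate block, chosen after seeing the data, called 26 higher and 51 lower, 39 and 54 with the adult muscle level, and 2 and 4 with the regenerating muscle level. Unadjusted edgeR counts were 733 higher and 1038 lower with the replicate block, and 350 and 434 with the adult muscle level in the 12 libraries. With the block and the regenerating muscle level, also added after seeing the data, they were 292 higher and 235 lower in edgeR and 193 and 204 in DESeq2. Leaving out libraries or pairs, over all fits, gave 0 to 64 higher and 0 to 118 lower calls, 201 to 1002 higher and 355 to 1330 lower at an unadjusted p under 0.05. Without removed number 1 alone the unadjusted edgeR counts were 201 and 355. The muscle difference of 0.43 log2 units kept its sign, between 0.044 and 0.66.

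Of 85 named genes, 76 kept their direction in every setting that gave them an adjusted p. Apart from the fixed genes, the 85 were picked for a small p in this contrast, so that count is a description. Ccl2, Prg4, Scx, Mkx, Ckm, Acta1 and Mki67, which changed direction in some setting, are fixed genes. Ccl2 ran from -0.18 to 0.204, Prg4 from -0.29 to 0.026, Scx from -0.27 to 0.091, Mkx from -0.0047 to 0.51 and Ckm from -0.067 to 0.91 as libraries were left out. With the adult muscle level Prg4 was 0.13, Acta1 -0.013 and Ckm -0.12, and with the replicate block as well Ckm was -0.15 and Mkx -0.072 (DESeq2 -0.15 and -0.078). With the replicate block and the regenerating muscle level Acta1 was -0.34, Ckm -0.31, Mki67 0.0198, Mkx -0.298, Myh7 -0.26 and Myl2 -0.19 in edgeR, and -0.35, -0.32, 0.013, -0.302, -0.26 and -0.22 in DESeq2; the cause was not tested. The 6 libraries a group set how small a difference could be called, and genes under about 5 CPM rest on few counts.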

Other observations

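List counts at an unadjusted p under 0.05 were compared between edgeR on the 12 libraries with the block (4.83% of features higher, 5.39% lower) and the same fit with the adult muscle level added (3.31% and 3.13%). Fibrous matrix genes went from 10 to 3 of 15 lower. Activated fibroblast genes went from 11 to 9 of 15 lower, endothelial genes from 8 to 7 of 12 higher and interferon response genes from 4 to 5 of 14 higher, while 7 of 15 immediate early and AP-1 genes were lower in both. These lists were picked after seeing the data, and a cause was not tested.

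The bone gene Ibsp differed by 3.23 on the log2 scale at levels under 5 CPM in each of the 12 libraries, and by 1.12 without removed number 6 (4.51 CPM). Col10a1 stood at 0.495 CPM or less in each of them, too low for a fold.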
